A study of Mus musculus with 6 samples.

Results

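The 39 genes described here encode subunits and accessory proteins of the vacuolar proton pump (V-ATPase, 23 genes) and carbonic anhydrases (16 genes). The rule that chose them reads the name only: it takes all genes whose symbol in the array's annotation begins with Atp6v or Atp6ap, or is Car with a number and an optional letter, out of 18307 named genes on the array. Total RNA of mouse epididymis and testis, and of the stromal vascular fraction (SVF) from mouse fat, was compared on 6 arrays of 2 channels, as 3 dye swaps of 2 arrays each. Each tissue was 1 RNA sample, and the labels state no strain, age or treatment of the mice and no fat depot for the SVF. The SVF is what is left of dissociated fat once adipocytes float off, a mixture of progenitors, vessel cells and immune cells.

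The V-ATPase is a rotary machine. Its V1 sector in the cytoplasm burns ATP, and its V0 sector in the membrane carries protons across. In nearly every cell it acidifies lysosomes and endosomes, and the clear and narrow cells of the epididymis also place it in the apical membrane, where it acidifies the lumen and helps keep stored sperm quiescent. Carbonic anhydrases convert carbon dioxide and water to bicarbonate and a proton, and so feed both proton and bicarbonate transport. Many subunits exist as alternative isoforms, some used everywhere and some only in acid-secreting or germ cells.

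Every value below is a log2 ratio of the first-named tissue over the second, with the sign of the dye-exchanged array turned, so that 1 means 2-fold higher in the first tissue. Errors are SDs over the 2 arrays (n = 2 hybridisations of the same RNAs) and leave out differences between animals, so there is no test between tissues. A gene was called toward a tissue when both arrays showed it at least 2-fold higher there. Neither the logarithm's base nor the ratio's direction is stated in the labels. Base 2 is a convention, and the direction is likely, from the order of tissues in the titles and from the dyes. In bulk RNA, fewer cells of a type and less RNA per cell cannot be told apart, and a ratio says nothing of a gene's absolute level.

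The tissue labels were set beside marker lists, which were chosen with earlier results of these data known and are no independent check. Against SVF, all 12 listed spermatid genes were called toward testis and all 12 duct epithelium genes toward epididymis. Of 9 mesenchymal progenitor genes, 8 were called toward SVF against testis and 6 toward SVF against epididymis. The array orientations of a pair correlated across all 25344 probes with r = -0.86, -0.64 and -0.77 as deposited (testis and SVF, epididymis and SVF, epididymis and testis), a description across probes. Around the loop of 3 comparisons, where an error-free gene sums to 0, 37 of the 39 genes came within 1 log2 unit, as did 92.4% of all named genes. The exceptions were Car13 (-3.49) and Car8 (-1.36).

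The promoters below are shown for a pair of alternative subunits, Atp6v1e1 and Atp6v1e2, whose ratios ran in opposite directions between epididymis and testis, and for Atp6v1b1, the acid-secreting-cell form of the B subunit. Each line is the 250 bases before the RefSeq start on GRCm38.p6, 5′ to 3′ on the gene's strand. They lie at chr6:120822699-120822948 (minus strand), chr17:86947888-86948137 (minus strand) and chr6:83742767-83743016 (plus strand). Capitals mark matches, on either strand, to the CCAAT box, the GC box GGGCGG, the E-box CACGTG or the forkhead core TGTTTAC.
Atp6v1e1: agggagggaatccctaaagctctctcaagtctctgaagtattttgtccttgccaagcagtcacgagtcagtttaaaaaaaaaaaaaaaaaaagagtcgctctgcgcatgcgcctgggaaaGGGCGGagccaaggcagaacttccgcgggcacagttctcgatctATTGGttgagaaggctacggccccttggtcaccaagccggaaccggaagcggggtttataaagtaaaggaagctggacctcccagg
Atp6v1e2: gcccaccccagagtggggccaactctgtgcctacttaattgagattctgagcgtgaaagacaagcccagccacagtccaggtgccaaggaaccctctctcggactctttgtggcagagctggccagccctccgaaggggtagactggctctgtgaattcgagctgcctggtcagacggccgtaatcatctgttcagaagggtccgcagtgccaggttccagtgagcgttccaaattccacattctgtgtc
Atp6v1b1: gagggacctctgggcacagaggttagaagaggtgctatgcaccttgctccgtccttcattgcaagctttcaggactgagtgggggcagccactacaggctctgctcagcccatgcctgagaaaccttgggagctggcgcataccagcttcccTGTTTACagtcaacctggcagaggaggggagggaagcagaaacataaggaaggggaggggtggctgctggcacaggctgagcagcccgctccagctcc

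The Atp6v1e1 window held a GC box (GGGCGG), which began 130 bases before the start, and a CCAAT box read on the other strand as ATTGG, which began 86 bases before it. The Atp6v1e2 window held none of the 4 motifs, and no match says only that these letters are not in this window. The Atp6v1b1 window held TGTTTAC, a core that forkhead factors can bind, 98 bases before the start. No matches overlapped in these windows. A promoter was available for 28 of the 39 genes. These genes had 33 windows. CCAAT was present in 11 of the 33 (11 genes) and in 33.8% of all 32851 promoter windows. GGGCGG was present in 16 of the 33 (14 genes) and in 32.7% of all windows. CACGTG, the E-box of many lysosomal genes, was present in 3 of the 33 (Atp6v0b, Atp6v1a and Car6) and in 6.02% of all windows. TGTTTAC was present in 2 of the 33 (Atp6v1b1 and Car5a) and in 3.17% of all windows. A match is a description of the sequence.

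Over the 3 comparisons 25 of the 39 genes (64.1%) were called in at least 1, against 47.1% of all named genes. Between testis and SVF, 3 of 39 were called toward testis (all named genes 20.7%) and 10 toward SVF (all named genes 16%). Between epididymis and SVF, 10 of 39 were called toward epididymis (all named genes 10.2%) and 1 toward SVF (all named genes 8.7%). Between epididymis and testis, 15 of 39 were called toward epididymis (all named genes 14.3%) and 6 toward testis (all named genes 18%). As shares of the 39 genes these counts are 7.69%, 25.6%, 25.6%, 2.56%, 38.5% and 15.4%. Counted on either array alone, 5 rather than 3 went toward testis against SVF, and 3 rather than 1 went toward SVF against epididymis. The median of the 39 ratios was -0.57 for testis over SVF, 0.58 for epididymis over SVF and 0.89 for epididymis over testis, beside medians of 0.00, 0.07 and 0.00 over all named genes. The -0.57 became -0.29 on either array alone.

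In both comparisons with testis the V0 genes ran in a single direction and the V1 genes were mixed. All 8 V0 genes had a mean below 0 for testis over SVF, with a median of -1.04, and 4 were called toward SVF. All 8 had a mean above 0 for epididymis over testis, with a median of 1.79, and 6 were called toward epididymis (75.0%, beside 14.3%). The 13 V1 genes were mixed, with a median of 0.85 for testis over SVF. There 3 were called toward testis and 1 toward SVF (23.1% and 7.69%, beside 20.7% and 16% of all named genes). Their median was 0.36 for epididymis over testis, where 3 were called in each direction (23.1% each, beside 14.3% and 18%). On array 2 alone that second V1 median was 0.21. For epididymis over SVF it was V1 that leaned to a single side, with 12 of 13 means above 0 and a median of 0.89. There 6 V1 genes were called toward epididymis and 0 toward SVF (46.2% and 0%, beside 10.2% and 8.7%). V0 had 5 means above 0 and 3 below, a median of 0.76, and 1 gene called each way (12.5% each).

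**Figure D1:**
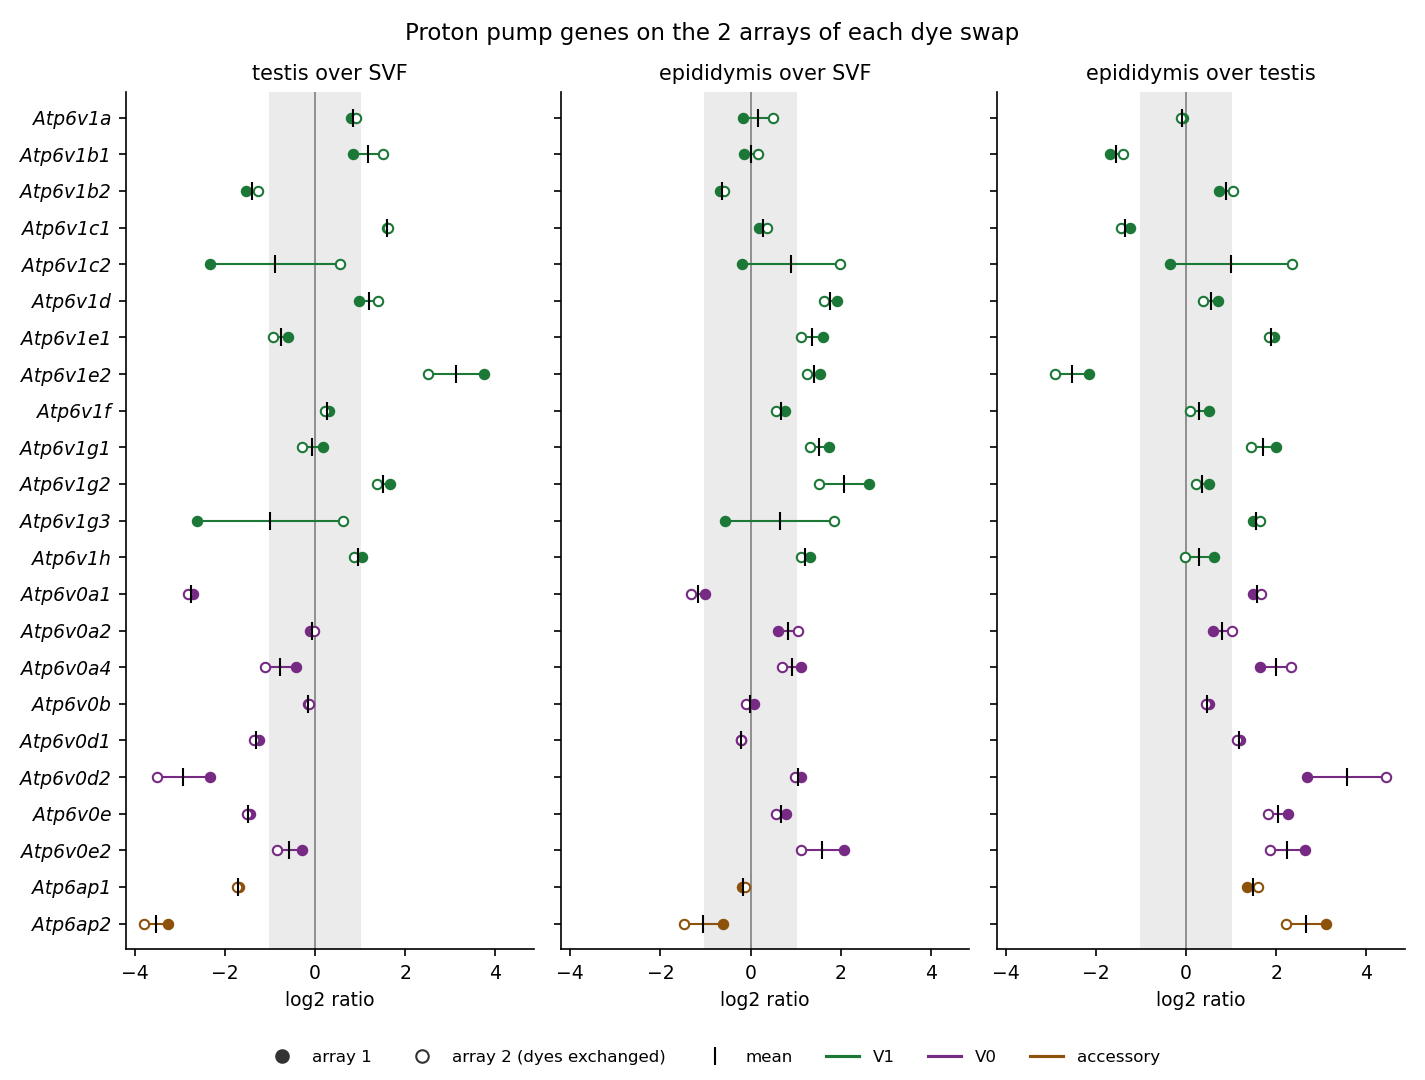
Log2 ratios (horizontal axis) of the 23 proton pump genes on each array of the 3 dye swaps, with array 1 filled, array 2 open, the mean as a tick and ratios under 2-fold shaded. All V0 genes lie left of 0 for testis over SVF and right of 0 for epididymis over testis, while Atp6v1e2 lies at 3.76 and 2.51 for testis over SVF.

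The E subunit isoforms of V1 took opposite signs in both comparisons with testis and were nearly equal for epididymis over SVF. Atp6v1e2 encodes the E subunit known from the sperm acrosome. It had ratios of 3.76 and 2.51 for testis over SVF (mean 3.13 ± 0.88, 8.78-fold), of 1.54 and 1.26 for epididymis over SVF (1.40 ± 0.20), and of -2.16 and -2.90 for epididymis over testis (-2.53 ± 0.53, 5.77-fold higher in testis). It was thus called in all 3 comparisons, highest in testis and lowest in SVF. Atp6v1e1, the form used in most tissues, had ratios of -0.60 and -0.92 for testis over SVF, 1.60 and 1.13 for epididymis over SVF (1.37 ± 0.33), and 1.95 and 1.83 for epididymis over testis (1.89 ± 0.09, 3.70-fold). Epididymis was above both other tissues for Atp6v1e1, and testis was 1.70-fold below SVF on average, short of 2-fold.

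Most germ cell markers lay on the same sides as Atp6v1e2. Of 12 spermatid genes, 11 were called toward epididymis against SVF (91.7%, beside 10.2% of all named genes), with means between 1.44 and 2.76 and a median of 2.30. The same genes had a median of -2.98 for epididymis over testis. Of 9 spermatocyte and germ line genes, 6 were called toward epididymis against SVF (66.7%, median 1.86, means between -0.23 and 2.60). For epididymis over testis 8 of these 9 were called toward testis (median -3.92, means between -4.62 and -0.37). The part of germ cells in the epididymal ratio of Atp6v1e2 was not tested.

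The C subunit links the stalks of the pump, and the B subunit forms part of its ATP-binding head. Atp6v1c1, the general C subunit, stood at 1.59 and 1.62 for testis over SVF (1.61 ± 0.02, 3.05-fold), 0.18 and 0.37 for epididymis over SVF, and -1.25 and -1.44 for epididymis over testis (-1.34 ± 0.13). Testis thus stood above both other tissues. Atp6v1b2, the general B subunit, stood at -1.52 and -1.26 for testis over SVF (-1.39 ± 0.18, 2.62-fold higher in SVF), -0.67 and -0.59 for epididymis over SVF, and 0.74 and 1.04 for epididymis over testis. SVF was the highest of the 3 tissues for Atp6v1b2, with only the gap to testis past the rule on both arrays.

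Atp6v1b1, the B subunit of clear cells and kidney intercalated cells, was not higher in epididymis than in SVF, at -0.15 and 0.17 (0.01 ± 0.23). For testis over SVF it stood at 0.84 and 1.50, and for epididymis over testis at -1.69 and -1.40 (-1.55 ± 0.21, 2.92-fold higher in testis). Testis was the highest tissue for its single probe, by less than 2-fold on 1 of the arrays against SVF. Foxi1, the forkhead factor of clear cells, stood at 2.52 and 2.12 for epididymis over SVF and 3.38 and 3.21 for epididymis over testis. Of the 8 listed clear and narrow cell genes, 3 were called toward epididymis against SVF and 0 toward SVF (median 1.56, means between 0.11 and 3.13). These were 37.5% and 0%, beside 10.2% and 8.7% of all named genes. Of those 3, Aqp9, a water channel, and Adcy10, a cyclase also found in sperm, were called toward testis against SVF as well. For epididymis over testis 2 of the 8 were called toward epididymis and Adcy10 toward testis (median 1.01, means between -3.97 and 3.29). These were 25.0% and 12.5%, beside 14.3% and 18% of all named genes.

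The kidney-type forms Atp6v1c2 and Atp6v1g3 could not be read against SVF, because their arrays disagreed in sign. Atp6v1c2 stood at -2.33 and 0.56 for testis over SVF, -0.19 and 1.98 for epididymis over SVF, and -0.35 and 2.34 for epididymis over testis. Atp6v1g3 stood at -2.61 and 0.63 for testis over SVF and at -0.57 and 1.86 for epididymis over SVF. Only its ratio of epididymis over testis was alike on both arrays, at 1.49 and 1.63 (1.56 ± 0.10, 2.94-fold). The dye term of the fit over all 6 arrays was -1.29 for Atp6v1c2 and -0.97 for Atp6v1g3.

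The remaining G subunits, parts of the outer stalk, were both higher in epididymis than in SVF. Atp6v1g1, the general form, stood at 0.18 and -0.29 for testis over SVF, 1.75 and 1.31 for epididymis over SVF (1.53 ± 0.31, 2.88-fold), and 1.99 and 1.44 for epididymis over testis (1.71 ± 0.39). Atp6v1g2, best known from brain, stood at 1.66 and 1.37 for testis over SVF (1.52 ± 0.20), 2.63 and 1.52 for epididymis over SVF (2.07 ± 0.79, 4.21-fold), and 0.50 and 0.21 for epididymis over testis. SVF was therefore the low tissue for Atp6v1g2, and epididymis the high tissue for Atp6v1g1.

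Atp6v1d of the central rotor stood at 0.98 and 1.40 for testis over SVF, 1.91 and 1.62 for epididymis over SVF (1.77 ± 0.21, 3.41-fold), and 0.71 and 0.38 for epididymis over testis. Atp6v1h, which couples V1 to V0, stood at 1.05 and 0.86, at 1.32 and 1.11 (1.21 ± 0.15, 2.32-fold) and at 0.61 and -0.03 in the same order. Both genes were called only for epididymis over SVF, and 1 of their 2 testis arrays fell just short of 2-fold. Atp6v1f, also of the rotor, had means of 0.26, 0.67 and 0.30 and met the rule nowhere.

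Atp6v1a, the catalytic subunit, had 2 probes that disagreed. Averaged, it met the rule nowhere, with means of 0.85 ± 0.09 for testis over SVF, 0.17 ± 0.46 for epididymis over SVF and -0.09 ± 0.03 for epididymis over testis. The first probe alone stood at 2.11 and 1.55 for testis over SVF and 1.39 and 1.04 for epididymis over SVF, past the rule in both. The second stood at -0.54 and 0.29, and at -1.70 and -0.05. The gene's value therefore depends on the probe.

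Among V0 genes, the a subunits carry the proton path and set where the pump sits. Atp6v0a1, a widely used form, was the only 1 of the 39 genes called toward SVF against epididymis, at -1.01 and -1.32 (-1.17 ± 0.22, 2.24-fold). It stood at -2.70 and -2.81 for testis over SVF (-2.75 ± 0.08, 6.74-fold higher in SVF) and 1.49 and 1.67 for epididymis over testis (1.58 ± 0.12). SVF was highest and testis lowest for this gene.

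Atp6v0a4, the form of acid-secreting cells, stood at -0.43 and -1.10 for testis over SVF, 1.12 and 0.70 for epididymis over SVF (0.91 ± 0.30), and 1.65 and 2.33 for epididymis over testis (1.99 ± 0.48, 3.97-fold). Its ratio to SVF in epididymis passed 2-fold on 1 array only. Atp6v0a2, a form of Golgi and endosomes, had means of -0.06, 0.84 and 0.80 and met the rule nowhere.

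Tcirg1, which encodes the a subunit of osteoclasts and lysosomes and falls outside the naming rule, stood at -3.83 and -3.92 for testis over SVF and -2.43 and -2.30 for epididymis over SVF. Macrophage markers moved the same way: 9 of 11 measured were called toward SVF against testis (median -3.46, means between -5.92 and 1.78) and 10 of 11 toward SVF against epididymis (median -3.20, means between -4.74 and -1.53). Mesenchymal progenitor genes also lay toward SVF. Of 9, 8 were called toward SVF against testis (median -3.82, means between -5.17 and -0.07). Against epididymis 6 were called toward SVF (median -2.62, means between -4.05 and 0.25). The part of either cell type in the ratios of Tcirg1 and Atp6v0a1 was not tested.

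**Figure D2:**
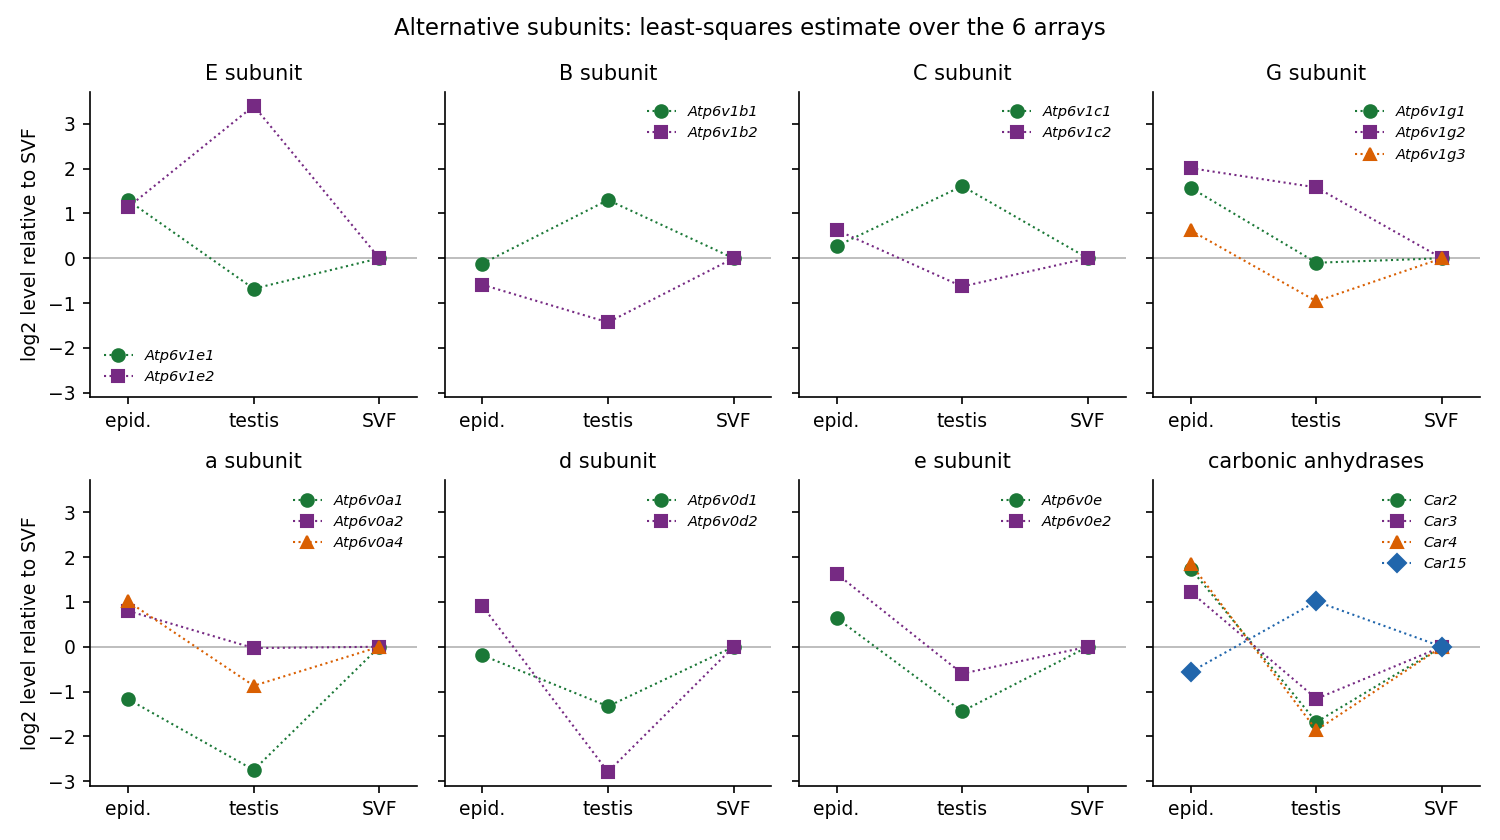
Least-squares level of each gene over the 6 arrays, relative to its own level in SVF (vertical axis, log2), in epididymis, testis and SVF, for isoforms of 7 pump subunits and 4 carbonic anhydrases. The points show estimates with no error bar, and dotted lines only join the points of a gene. Atp6v1e2 and Atp6v1c1 peak in testis, Atp6v0d2 and Car2, Car3 and Car4 are lowest there.

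The d subunits join the rotor to the membrane ring. Atp6v0d2, the form of osteoclasts, kidney and epididymis, stood at -2.33 and -3.51 for testis over SVF (-2.92 ± 0.84, 7.57-fold higher in SVF), 1.11 and 0.98 for epididymis over SVF (1.04 ± 0.09), and 2.69 and 4.44 for epididymis over testis (3.57 ± 1.24, 11.8-fold). Its ratio to SVF in epididymis passed 2-fold on 1 array. By the mean, its epididymis over testis ratio was the highest of the 39 genes, at rank 210 of 18307. On array 1 alone it was below Car2 (3.73), Car4 (3.32) and Atp6ap2 (3.10). In the fit over all 6 arrays Car4 stood at 3.71 and Atp6v0d2 at 3.70. Atp6v0d1, the general form, stood at -1.25 and -1.36 for testis over SVF (-1.31 ± 0.08), -0.21 and -0.22 for epididymis over SVF, and 1.20 and 1.13 for epididymis over testis (1.17 ± 0.05). Both forms were low in testis, and Atp6v0d2 by more.

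Of the osteoclast-like macrophage markers, 0 of 9 were called toward epididymis against SVF and 4 toward SVF (median -0.95, means between -3.21 and -0.20). These were 0% and 44.4%, beside 10.2% and 8.7% of all named genes. For testis over SVF 6 of the 9 were called toward SVF (median -2.40, means between -4.07 and 0.18). Their part in the ratios of Atp6v0d2 was not tested.

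The small e subunits were both higher in epididymis than in testis. Atp6v0e stood at -1.45 and -1.50 for testis over SVF (-1.47 ± 0.03, 2.78-fold higher in SVF), 0.78 and 0.57 for epididymis over SVF, and 2.27 and 1.82 for epididymis over testis (2.04 ± 0.32, 4.12-fold). Atp6v0e2 stood at -0.29 and -0.84 for testis over SVF, 2.07 and 1.12 for epididymis over SVF (1.60 ± 0.67, 3.02-fold), and 2.63 and 1.87 for epididymis over testis (2.25 ± 0.54, 4.77-fold). Atp6v0b, a proton-carrying ring subunit, had means of -0.14, -0.01 and 0.47 and met the rule nowhere.

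Both accessory genes lie on the X chromosome and were low in testis. Atp6ap2, the prorenin receptor, which also helps pump assembly, stood at -3.27 and -3.79 for testis over SVF (-3.53 ± 0.37, 11.5-fold higher in SVF), -0.62 and -1.48 for epididymis over SVF, and 3.10 and 2.21 for epididymis over testis (2.66 ± 0.63, 6.30-fold). Its testis over SVF ratio was the lowest of the 39 genes. Atp6ap1 stood at -1.68 and -1.72 for testis over SVF (-1.70 ± 0.03, 3.26-fold higher in SVF), -0.20 and -0.13 for epididymis over SVF, and 1.36 and 1.60 for epididymis over testis (1.48 ± 0.17). Across 617 X-linked named genes, 23.0% were called toward SVF against testis, with a median of -0.29, beside the 16% of all named genes.

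Of the 16 carbonic anhydrase genes, 7 were called in at least 1 comparison, a share close to the 47.1% of all named genes. Car2, Car3 and Car4 were called in all 3. For testis over SVF 0 were called toward testis and 3 toward SVF (0% and 18.8%, beside 20.7% and 16% of all named genes). The median was -0.51, with -0.29 on array 1 alone. For epididymis over SVF 3 were called toward epididymis and 0 toward SVF (18.8% and 0%, beside 10.2% and 8.7% of all named genes). The median was 0.27, with 0.79 on array 1 alone and -0.13 on array 2 alone. For epididymis over testis 4 were called toward epididymis and 3 toward testis (25.0% and 18.8%, beside 14.3% and 18% of all named genes), with a median of 0.58.

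**Figure D3:**
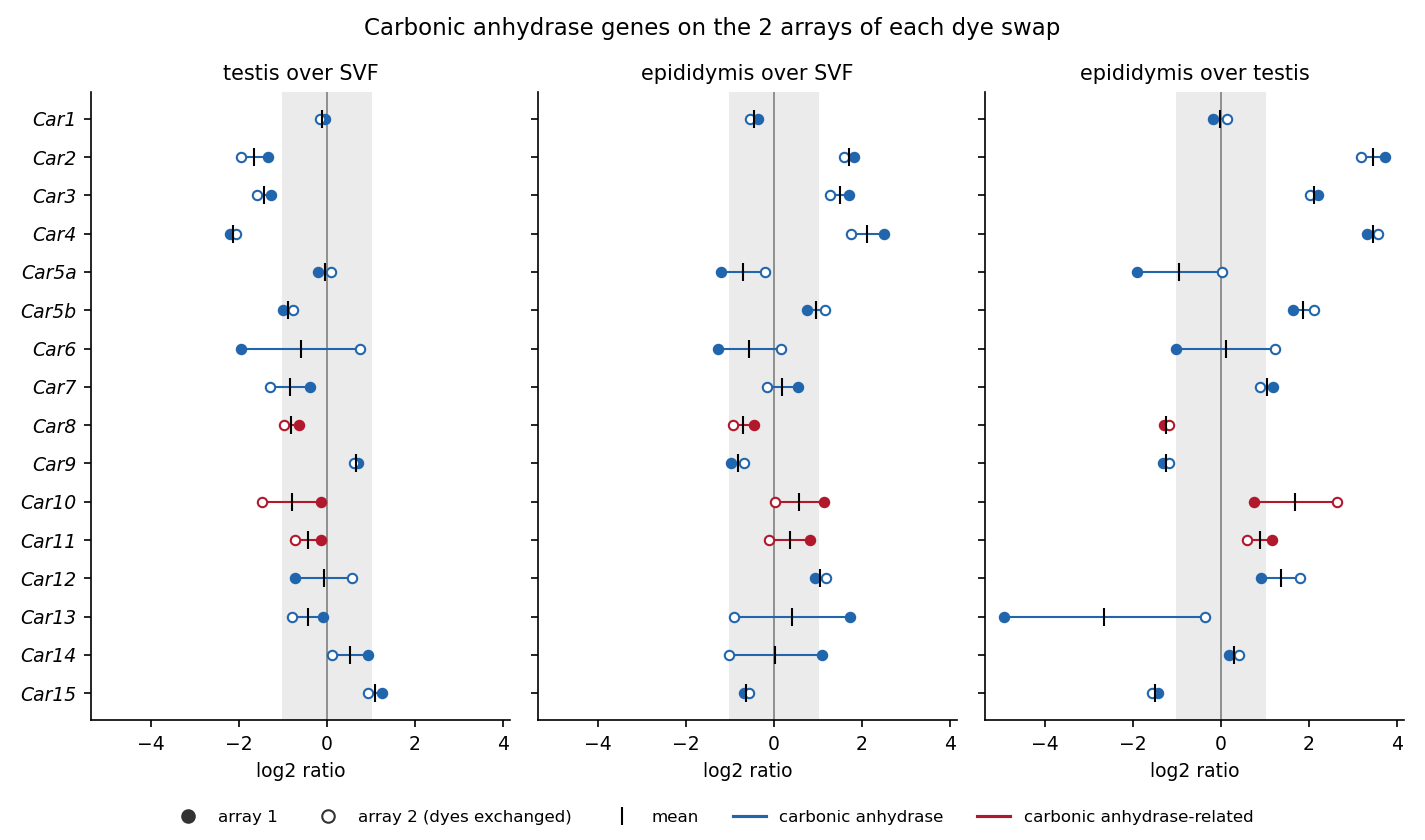
Log2 ratios (horizontal axis) of the 16 carbonic anhydrase genes on each array of the 3 dye swaps, with array 1 filled, array 2 open, the mean as a tick and ratios under 2-fold shaded. Car2, Car3 and Car4 lie outside the shading in all 3 panels, and Car13 spans from -4.92 to -0.37 for epididymis over testis.

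Car4, an enzyme anchored on the outer face of the cell membrane, stood at -2.19 and -2.06 for testis over SVF (-2.12 ± 0.09, 4.36-fold higher in SVF), 2.49 and 1.74 for epididymis over SVF (2.12 ± 0.53, 4.34-fold), and 3.32 and 3.57 for epididymis over testis (3.44 ± 0.18, 10.9-fold). Car2, the fast cytosolic enzyme, stood at -1.34 and -1.96 for testis over SVF (-1.65 ± 0.44, 3.14-fold higher in SVF), 1.82 and 1.60 for epididymis over SVF (1.71 ± 0.15, 3.27-fold), and 3.73 and 3.17 for epididymis over testis (3.45 ± 0.40, 10.9-fold). Car3, a cytosolic form of low activity abundant in fat and muscle, stood at -1.27 and -1.59, at 1.71 and 1.28 (1.49 ± 0.30, 2.82-fold), and at 2.20 and 2.02 (2.11 ± 0.13, 4.32-fold) in the same order. All 3 were highest in epididymis, intermediate in SVF and lowest in testis, an order that 127 of all named genes (0.694%) met by the same rule. For epididymis over testis, Car2 ranked 243 and Car4 245 of 18307 genes.

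Markers of other cells that use these enzymes gave mixed values. Of 9 measured adipocyte genes, 2 were called toward testis and 5 toward SVF for testis over SVF (median -1.22). These were 22.2% and 55.6%, beside 20.7% and 16% of all named genes. For epididymis over SVF 1 was called toward epididymis and 1 toward SVF (Scd1 at 1.29, Cidec at -1.28, list median -0.29). These were 11.1% each, near the 10.2% and 8.7% of all named genes. Of 5 erythroid genes measured, 1 was called toward epididymis and 3 toward SVF (20.0% and 60.0%, median -2.60, means between -3.32 and 1.71). Car1, the red cell form, stood at -0.35 and -0.54 for epididymis over SVF and at -0.05 and -0.15 for testis over SVF. All 12 duct epithelium genes were called toward epididymis against SVF (median 4.16, means between 2.74 and 7.29). Their part in the ratios of Car2, Car3 and Car4 was not tested.

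Toward testis, Car15, a membrane-anchored form that primates have lost, stood at 1.25 and 0.93 for testis over SVF, -0.69 and -0.57 for epididymis over SVF, and -1.43 and -1.56 for epididymis over testis (-1.49 ± 0.09, 2.82-fold higher in testis). Car9, a transmembrane form induced by low oxygen, stood at 0.70 and 0.61 for testis over SVF, -0.98 and -0.67 for epididymis over SVF, and -1.31 and -1.19 for epididymis over testis (-1.25 ± 0.09). Epididymis was the lowest of the 3 tissues for both genes. Car8, which lacks enzyme activity, stood at -0.64 and -0.98 for testis over SVF, -0.46 and -0.93 for epididymis over SVF, and -1.30 and -1.18 for epididymis over testis. Its 3 ratios do not close, and the estimate over the loop for epididymis over testis was -0.79, short of 2-fold.

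Car5b, a mitochondrial form, was called higher in epididymis than in testis at 1.63 and 2.11 (1.87 ± 0.34), a call that rests on 1 of its 2 probes. The first probe stood at 0.22 and 0.14, and the second at 3.04 and 4.09. Car12, a transmembrane form of secretory epithelia, was above 0 on all arrays that carried epididymis, at 0.93 and 1.18 for epididymis over SVF and 0.92 and 1.80 for epididymis over testis, with 1 array of each pair just under 2-fold. Car7, a cytosolic form best known from brain, had a mean of 1.04 ± 0.21 for epididymis over testis, with 1 array under 2-fold. Car10 and Car11, which also lack enzyme activity, had means of 1.69 ± 1.33 and 0.87 ± 0.41 for epididymis over testis and met the rule nowhere.

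The other genes of the family gave no call. Car13, cytosolic, stood at -4.92 and -0.37 for epididymis over testis, the widest gap between arrays in the family. Car6, the secreted salivary form, had arrays of opposite sign in all 3 comparisons, with a dye term of -1.06. Car5a, the mitochondrial form of liver, stood at -1.91 and 0.02 for epididymis over testis, and Car14, transmembrane, at 1.09 and -1.03 for epididymis over SVF. At least 1 dye swap gave opposite signs for 15 of the 39 genes (38.5%), 7 of them pump genes and 8 carbonic anhydrases, against 51.0% of all named genes.

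Lysosomal genes, a list kept beside the pump because most of its copies sit on that organelle, were also low in testis. Of 21 measured, 14 were called toward SVF against testis and 0 toward testis (median -1.60). These were 66.7% and 0%, beside 16% and 20.7% of all named genes. Lamp2, a lysosomal membrane protein, stood at -4.17 and -4.36 there, and the membrane receptor Scarb2 at -3.74 and -4.03. For epididymis over SVF 2 were called toward epididymis and 5 toward SVF (median 0.11). The 9.52% toward epididymis was near the 10.2% of all named genes, and the 23.8% toward SVF stood beside 8.7%. The cholesterol carrier Npc2 stood at 3.11 and 1.95 there, and the protease Ctsb at -3.27 and -2.28. For epididymis over testis 11 were called toward epididymis and 0 toward testis (median 1.42). These were 52.4% and 0%, beside 14.3% and 18% of all named genes. The sialidase Neu1 stood at 4.11 and 3.17 there, and the protease Ctsd at 3.58 and 3.68.

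**Figure D4:**
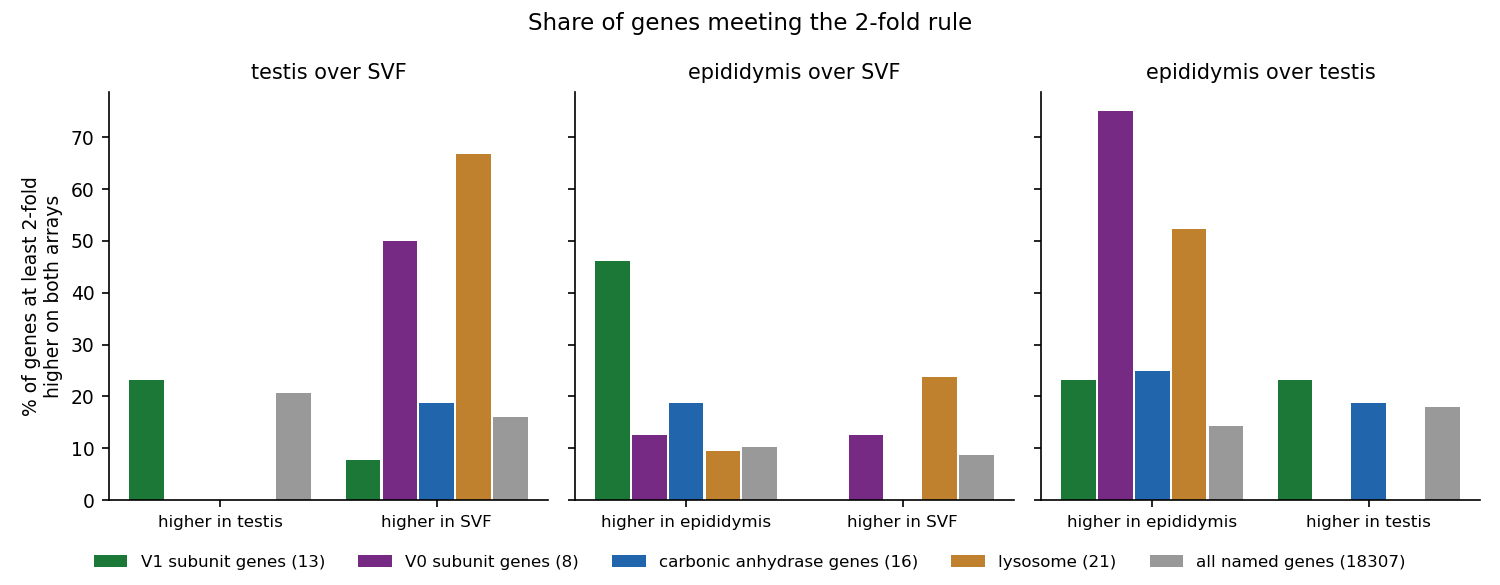
Share of genes (vertical axis, percent) at least 2-fold higher on both arrays in each tissue of the 3 comparisons, for V1, V0, carbonic anhydrase and lysosomal genes beside all 18307 named genes, with the number of genes in brackets. The V0 and lysosomal bars exceed the grey bar for SVF against testis and for epididymis against testis, and neither list has a bar toward testis.

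Genes that assemble or regulate the pump were called at shares near those of all named genes in both comparisons with SVF. Of 11 measured, 2 were called toward testis and 2 toward SVF (18.2% each, beside 20.7% and 16% of all named genes). For epididymis over SVF 1 was called each way (9.09% each, beside 10.2% and 8.7%), and for epididymis over testis 1 each way (beside 14.3% and 18%). Beyond Tcirg1, Wdr7, a subunit of the pump assembly complex rabconnectin, stood at 1.07 and 2.16 for testis over SVF and -2.06 and -1.13 for epididymis over testis. Rogdi, of the same complex, stood at 1.73 and 1.10 for testis over SVF and 1.45 and 1.01 for epididymis over SVF.

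Bicarbonate and proton transporters met the rule in epididymis over SVF for 3 of 21 measured, all higher in epididymis (median 0.22). These were 14.3% toward epididymis and 0% toward SVF, beside 10.2% and 8.7% of all named genes. The chloride and bicarbonate channel gene Cftr stood at 2.04 and 2.80, but also at 3.00 and 2.65 for testis over SVF and at 0.29 on both arrays for epididymis over testis. Against SVF in epididymis, the chloride-bicarbonate exchanger gene Slc26a3 stood at 1.24 and 3.15. Adcy10, the bicarbonate-sensing adenylyl cyclase of sperm and clear cells, stood at 1.86 and 1.41 for epididymis over SVF, 4.99 and 4.64 for testis over SVF, and -3.69 and -4.26 for epididymis over testis. For testis over SVF 2 of the 21 were called toward testis and 2 toward SVF (median -0.09). These were 9.52% each, beside 20.7% and 16% of all named genes. In epididymis over testis 2 were called toward epididymis and 1 toward testis (median 0.20). The shares there were 9.52% and 4.76%, beside 14.3% and 18%. The bicarbonate cotransporter gene Slc4a4 stood at 2.92 and 2.46 for epididymis over testis, the same side as Car2 and Car4. Its ratios were -2.11 and -1.93 for testis over SVF. For epididymis over SVF they were 0.53 and 0.25, short of 2-fold, unlike those of Car2 and Car4.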

How the data were processed

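Total RNA of epididymis, testis and SVF was hybridised with Cy3 and Cy5 in 3 dye swaps. The values are log ratios the authors deposited for 25344 probes, read here as log2. No source used here gives their background correction, normalization, logarithm base or direction. The direction was taken from the titles and dyes, and the exchanged array's sign was turned. Column medians as deposited ran from 0.005 to 0.114, and no centring was added.

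Of 21112 annotated probes, 20456 were named by gene ID and 220 by symbol through the GRCm38.p6 gene table, 30 with several genes and 406 unmatched probes were left unnamed, and 4232 probes had no annotation row. A gene's value is the mean over its probes. Symbols can be old. Each tissue is 1 RNA sample, so no test was made, and the number of arrays limits precision. Spot intensities were not used, and how far each probe stood above background is unknown. The members and gene lists were chosen with earlier results of these data known. Every member may be named, and of listed genes up to 3 per list and comparison that met the 2-fold rule. The rule and the loop fit were run on simulated ratios. Their errors were normal, of the same spread for all probes of a comparison and without dye terms, so dye effects were not covered. Python 3.11.15, pandas 2.3.3 and numpy 2.4.6 were used.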

Additional observations from a re-analysis of the deposited data

How the results depend on the processing

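Of 45 member calls over the 3 comparisons, 45 were kept after centring each array on its median and 44 by least squares over the loop with a dye term, the exception being Car8. None changed sign under any alternative run. At 4-fold on both arrays 11 were kept: 1 gene higher in testis than in SVF and 4 higher in SVF, 0 genes in either direction for epididymis over SVF (10 and 1 at 2-fold), and 5 higher in epididymis than in testis and 1 higher in testis. The count higher in testis than in SVF was 6 by the loop fit, 6 by 2-fold on the mean and 8 if the values are natural logarithms, against 3 as reported, and 5 on either array alone. The count higher in SVF than in epididymis was 2 by the loop fit and by 2-fold on the mean, and 3 on either array alone, against 1. The pump median of testis over SVF, -0.57, was -0.29 to -0.14 on single arrays. The pump median of epididymis over SVF, 0.67, was 0.62 after centring, 0.84 with the probe of smallest SD, and 0.62 to 0.70 on single arrays. The carbonic anhydrase median of epididymis over testis, 0.58, was 0.24 with the probe of smallest SD, which replaces Car5b. Restricting to genes measured on all 6 arrays changed nothing, since no value is missing. No paired analysis was possible because each tissue is 1 RNA sample. How far signals stood above background is not known here, which limits the reading of ratios that differ between arrays.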
